A study of Homo sapiens with 6 samples.

Results

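The 60 genes described here form the core of the cell division cycle: G1 cyclins, cyclin-dependent kinases (CDKs) and their inhibitors, the pocket proteins, E2F and MYC factors, the replication genes of S phase, and the cyclins, kinases and motors of mitosis. They were taken by symbol from a table of 57820 genes, by a rule that uses no measured value, and all 60 were found. The list was, however, drawn up with earlier results of these data known. By role, 26 were placed in G1, 15 in S phase and 19 in mitosis. The counts came from RNA-seq of the J82 cell line, which was established from a human bladder cancer, with 3 control libraries and 3 libraries labelled FOXC1 KO (knockout). Knockout had been made with a lentiviral CRISPR/Cas9 vector (LentiCRISPRv2) carrying a guide against FOXC1, a forkhead transcription factor, followed by puromycin selection. The controls were vector control cells, and all libraries were of cells grown in DMEM with FBS. The methods speak of knockout clones, but the sources used here do not say whether replicates came from separate clones or cultures, so p-values measure the spread between these libraries, which may be technical.

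In G1, D-type cyclins with CDK4 or CDK6, and then E-type cyclins with CDK2, phosphorylate the pocket proteins RB1, RBL1 and RBL2 and so release E2F factors. E2F factors switch on genes for origin licensing, DNA synthesis and further cyclins. Genes needed for mitosis follow a later switch, in which MuvB complexes with MYBL2 and FOXM1 act through the cell cycle homology region (CHR) and NF-Y through CCAAT boxes, and CDK1 with A- and B-type cyclins then drives division. In bladder cancer, loss of CDKN2A or RB1 and gain of CCND1, CCNE1 or E2F3 are recurrent.

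Library totals ranged from 18408134 to 25350908 counts, and levels are given as CPM (counts scaled to a common library size with TMM factors). Transcript of FOXC1 itself was higher, not lower, in libraries carrying the KO label (18.4, 16.9 and 19.3 CPM in control replicates 1 to 3 and 24.1, 22.2 and 21.1 CPM in KO replicates 1 to 3, log2 fold change 0.30, SE 0.091, adjusted p 0.0127), so this transcript does not check the labels. The labels and the study's methods name a Western blot of FOXC1 protein as the check of the knockout, and protein was not analysed here. Directions are between libraries as labelled. Among 15 urothelial or epithelial markers KRT7, KRT8, KRT18, PPARG and GATA3 were detected at over 20 CPM. UPK1A, UPK1B, UPK2, UPK3A, UPK3B, KRT5, KRT20, TP63 and CDH1 were under 1 CPM in every library. Of the 7 tested markers of this list 5 fell (KRT8, KRT18, GATA3, PPARG and EPCAM), where 8.39% of all tested genes were called lower. Its summed level ran from 3057 to 3855 CPM in control and from 2414 to 2686 CPM in KO libraries. Of 7 tested fibroblast or mesenchymal markers 3 fell (COL1A2, COL3A1 and DCN) and 1 rose (COL1A1), where 7.57% of all tested genes were called higher. VIM (log2 fold change 0.30, adjusted p 0.00137, without overlap) and PDGFRB (0.26, adjusted p 0.0401, with overlap) were also higher, but by less than 1.3-fold. The list thus held markers that went either way. The summed level of this list ran from 822 to 936 CPM in control and from 684 to 706 CPM in KO libraries. The 6 blood markers summed to 3.36 to 4.23 CPM in control and 5.31 to 6.20 CPM in KO libraries, with CD3E at 0 and CD14, the member of this list that passed the filter, higher (log2 fold change 0.62, adjusted p 0.00129). The 3 matched endothelial markers summed to 0.590 to 0.901 CPM in control and 1.55 to 1.90 CPM in KO libraries. CDH5 had 0, 0 and 1 counts in control and 18, 18 and 26 counts in KO libraries, and KDR was not called. CDH5 passed the filter on low counts only through the KO libraries, so its call is not independent of that filter. The part of these marker differences in the results below was not tested. The mean chi-square per gene was 10.1 and 8.55 between control replicate 1 and the other controls, 2.95 between control replicates 2 and 3, and 5.95 to 8.72 between KO libraries. Control replicates 2 and 3 were thus the closest pair.

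Most members differed little between the groups, and 5 of the 6 called members belong to G1. Of the tested members 20.8% were called in G1, 0% in S phase and 5.26% in mitosis, beside 16.0% of all tested genes. MYC, CDKN1C and CCND1 rose and CCNE1, CDK4 and WEE1 fell in KO libraries. Of the 58 members that passed the filter on low counts, 3 were called higher and 3 lower (fold change over 1.3 with an adjusted p under 0.05), against 16.0% of all 15647 tested genes in either direction (7.57% higher and 8.39% lower). This share of 10.3% is below that of the whole table. DESeq2 also called 6 members, against 11.9% of the 17225 genes for which it gave an adjusted p. In G1, 3 of 24 tested members were higher and 2 lower. In S phase 0 of 15 were called with edgeR, where 5 had an unadjusted p under 0.05, and 0 were called with DESeq2. Among mitotic members 1 of 19, WEE1, was lower. Whether the phases differ in their share of called members was not tested. In edgeR's test against a 1.3-fold change itself, in place of no change, MYC and CDKN1C were higher and 0 members lower.

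Among these members, sizes of change were smaller outside G1. The lowest control mean of a tested member was 0.961 CPM in G1, 35.6 CPM in S phase and 33.3 CPM in mitosis. The part of low counts in the sizes of change was not tested. Without the fold change threshold 15 members had an adjusted p under 0.05 (8 lower and 7 higher), against 29.4% of all tested genes (14.3% lower and 15.2% higher), and 10 of these were G1 members. The median absolute log2 fold change was 0.23 in G1, 0.12 in S phase and 0.092 in mitosis, beside 0.18 over all tested genes. The signed medians lay near zero in each phase, at -0.013, -0.061 and 0.00028, beside -0.00084 over all tested genes. For 17 of 19 mitotic and 13 of 15 S members the 95% interval of the difference lay wholly within a 1.3-fold change in either direction, as it did for 10 of 24 G1 members. Control and KO values did not overlap in 24 of 58 members (41.4%), close to the 41.3% of all tested genes. KO values were above in 11 of them (20.5% of all tested genes) and below in 13 (20.8%). An absolute log2 fold change under 0.1 was found for 22 members (37.9%), against 30.2% of all tested genes. In bulk RNA, fewer cells in a phase and less RNA per cell in that phase cannot be told apart.

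**Figure D1:**
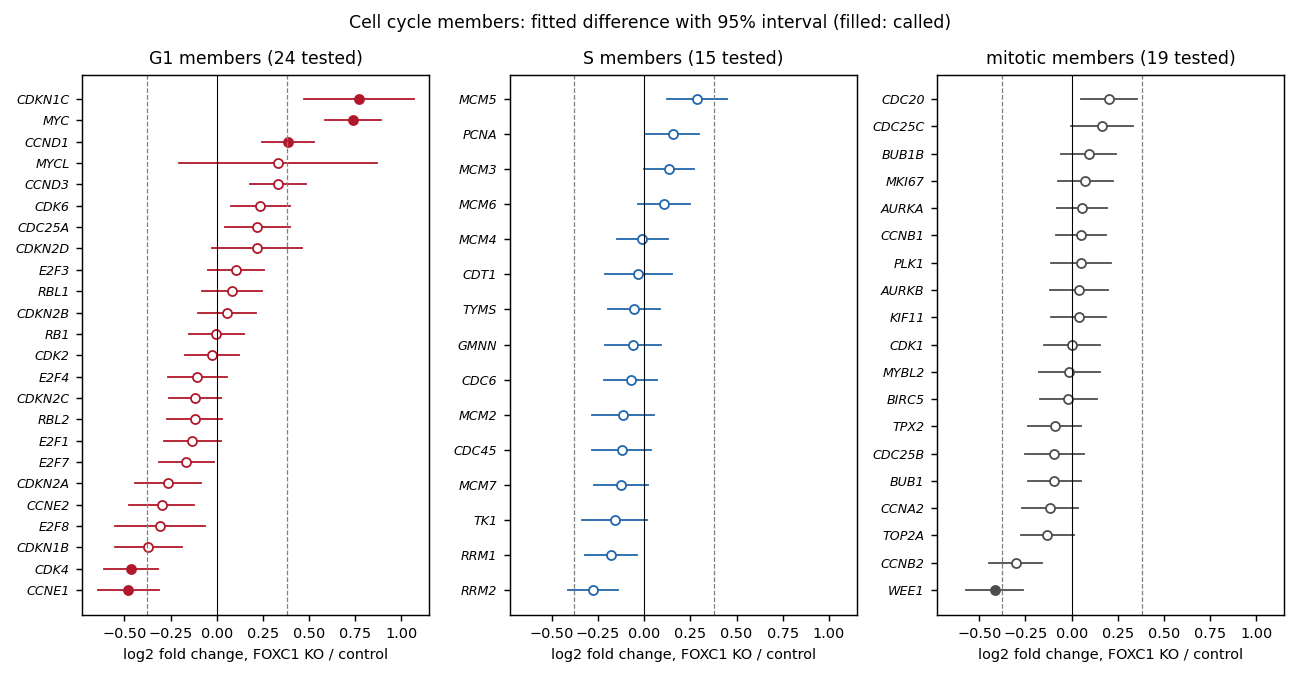
Log2 fold change (FOXC1 KO over control, x axis) of each tested member with its 95% interval, in panels for 24 G1, 15 S and 19 mitotic members, sorted by value. Filled points are called members, past 1.3-fold (dashed lines) with an adjusted p under 0.05, and the points spread from -0.48 to 0.77 in G1 and from -0.42 to 0.20 in mitosis.

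To show the regulatory sequence behind these groups, motifs were sought in the DNA before the starts. The motifs and windows were chosen after the values above were seen. The 250 bases upstream of each start listed by RefSeq were searched on both strands, for 47 members with an entry and for 27305 genes. A gene was counted when any of its listed starts held a motif, so more starts gave more chances of a match. There were 71 starts for the 47 members and 35116 for the 27305 genes, and shares were not adjusted for this. An E2F motif (TTTCCCGC, TTTCGCGC, TTTGCCGC or TTTGGCGC) was found in 7 of 13 S, 5 of 19 G1 and 1 of 15 mitotic members, and in 3.40% of all genes. The CHR letters (TTTGAA or TTCGAA) were found in 10 of 15 mitotic, 2 of 13 S and 2 of 19 G1 members, and in 17.2% of all genes. CCAAT was found in 13 of 15 mitotic, 10 of 13 S and 9 of 19 G1 members and in 10102 of 27305 genes. The E-box CACGTG, bound by MYC with MAX, was found in 8 of 47 members and 7.73% of all genes, and the forkhead letters GTAAACA or GTAAATA in 3 of 47 members and 6.43% of all genes. Such matches describe letters and not binding. Windows are shown for CDK4, a called member whose window holds an E-box, for MCM3 as an S phase promoter, and for CCNB1 and CCNB2, the B-type cyclins, whose values are set side by side below. All are RefSeq windows matched once to GRCh37 (hg19) and written 5′ to 3′ in the direction of the gene, with matches to any of the 5 motif groups in capitals. They lie at chr12:58146094-58146343 (minus strand) for CDK4, chr6:52149541-52149790 (minus strand) for MCM3, chr5:68462727-68462976 (plus strand) for CCNB1 and chr15:59397095-59397344 (plus strand) for CCNB2.
CDK4: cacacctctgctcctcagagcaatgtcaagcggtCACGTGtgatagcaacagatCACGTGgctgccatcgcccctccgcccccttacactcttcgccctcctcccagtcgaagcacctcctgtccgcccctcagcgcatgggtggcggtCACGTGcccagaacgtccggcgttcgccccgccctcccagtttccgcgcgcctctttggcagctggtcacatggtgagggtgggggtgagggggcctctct
MCM3: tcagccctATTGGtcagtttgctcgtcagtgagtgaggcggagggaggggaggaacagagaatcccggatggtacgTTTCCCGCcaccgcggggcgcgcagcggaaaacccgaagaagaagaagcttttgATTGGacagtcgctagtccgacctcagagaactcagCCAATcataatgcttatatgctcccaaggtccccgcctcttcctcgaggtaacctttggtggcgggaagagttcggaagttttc
CCNB1: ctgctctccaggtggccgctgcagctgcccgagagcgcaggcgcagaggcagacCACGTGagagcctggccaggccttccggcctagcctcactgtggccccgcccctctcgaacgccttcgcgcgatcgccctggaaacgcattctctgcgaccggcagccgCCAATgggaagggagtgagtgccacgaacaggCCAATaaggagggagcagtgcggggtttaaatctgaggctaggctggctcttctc
CCNB2: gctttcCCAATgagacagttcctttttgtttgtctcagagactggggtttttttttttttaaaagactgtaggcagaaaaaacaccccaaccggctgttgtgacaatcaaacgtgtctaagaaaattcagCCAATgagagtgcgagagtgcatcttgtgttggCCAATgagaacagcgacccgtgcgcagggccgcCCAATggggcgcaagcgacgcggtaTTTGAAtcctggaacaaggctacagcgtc

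CDK4 carried 3 E-boxes, MCM3 an E2F motif with 3 CCAAT boxes on either strand, and CCNB1 an E-box with 2 CCAAT boxes. CCNB2 held 4 CCAAT boxes and, from base -29 to base -24 before its start, a CHR. The entry of CCNE1, the other called member with a window, held none of the 5 motifs. Windows for CCND1, CCND2, CCNE2, CDK2, CDKN1C, E2F8, MYC, MCM4, MCM5, WEE1, AURKA, BIRC5 and TPX2 were not used here.

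Among the MYC family, MYC rose, and MYCN had counts in each KO library and 0 in each control library. MYC (ENSG00000136997.10, chromosome 8, 128747680 to 128755197, plus strand), a basic helix-loop-helix factor that drives growth and cell cycle entry, had 49.6, 45.9 and 47.2 CPM in control replicates 1 to 3 and 81.2, 79.4 and 77.4 CPM in KO replicates 1 to 3. Each KO library lay well above each control library, with means of 47.6 ± 1.83 CPM for control and 79.3 ± 1.94 CPM for KO (SD, n = 3 each) (log2 fold change 0.74, SE 0.074, adjusted p 5.36e-09), a 1.67-fold rise. It was called in all 6 fits that each left out 1 library. MYCN, a paralogue best known from neuroblastoma, had 3, 11 and 6 counts in KO replicates 1 to 3. It did not pass the filter on low counts. The limit that a count of 0 allows was taken as 3 counts over the control group. With KO counts as observed, MYCN was then 7.18-fold higher in the KO group. Counting error in the KO group and the spread between libraries are not covered, so this figure is not a lower bound. A fit with no filter gave an adjusted p of 4.27e-05 over 32156 genes. In the whole table, 9 genes (0.0156%) had 0 counts in every control library and at least 3 in every KO library, and 4 genes (0.00692%) the reverse. MYCL, the third paralogue, had 17 to 36 counts per library (log2 fold change 0.33, SE 0.26, adjusted p 0.367). Per kilobase of transcript MYC made up 97.8, 97.4 and 98.5% in control libraries and 98.3, 97.4 and 98.2% in KO libraries of the 3 paralogues, so MYC supplied nearly all of the family's reads in both groups.

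**Figure D2:**
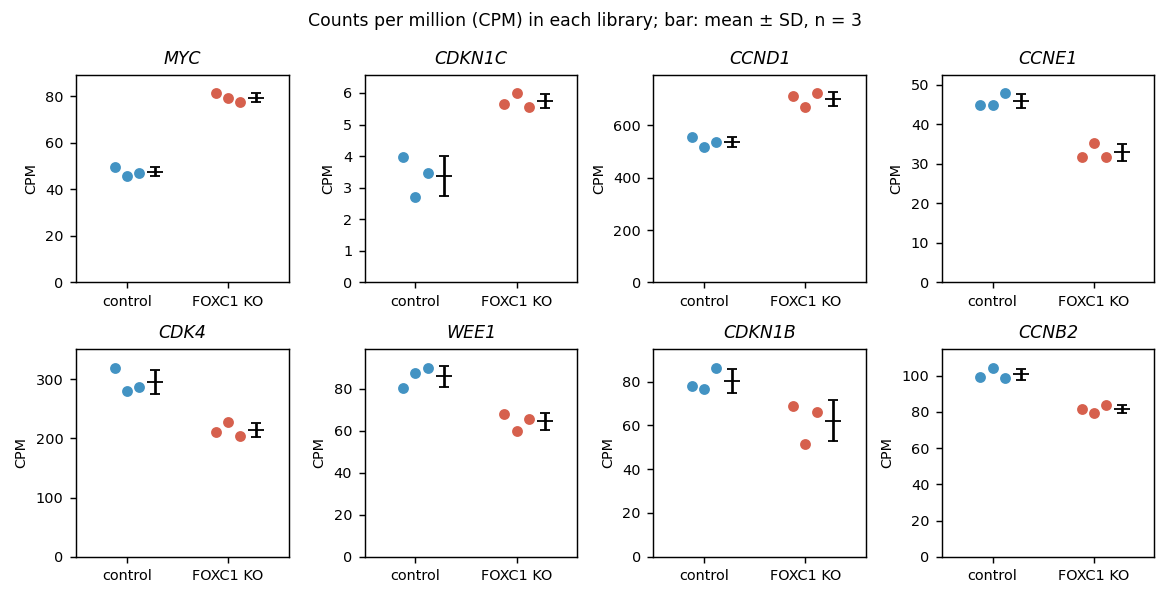
CPM (y axis, from 0) of 8 members in each library of the control and FOXC1 KO groups (3 points a group, with mean ± SD beside them). The first 6 panels are the called members and CDKN1B and CCNB2 had an adjusted p under 0.05 below the 1.3-fold threshold. In all 8 panels the groups do not overlap, which choosing members by adjusted p favours. Groups did not overlap for 41.3% of all tested genes.

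Among the G1 cyclins CCND1 rose and CCNE1 fell. CCND1 (ENSG00000110092.3, chromosome 11, 69455924 to 69469242, plus strand), the D-type cyclin with the highest level, had 556, 518 and 535 CPM in the control libraries and 711, 669 and 721 CPM in the KO libraries, and rose by 1.31-fold (log2 fold change 0.39, SE 0.069, adjusted p 7.52e-05). Every KO value was above every control value, but the change was just past the 1.3-fold threshold (0.379 on the log2 scale), and CCND1 missed it without KO replicate 1 (0.37), KO replicate 3 (0.36) or control replicate 2 (0.36) and with a mean of at least 50 counts as the filter (0.37). CCND3 had 89.1, 79.0 and 78.1 CPM in the control libraries and 103, 109 and 98.0 CPM in the KO libraries (log2 fold change 0.33, SE 0.075, adjusted p 0.00112), again without overlap but under the fold threshold, which it passed without control replicate 1 (0.39). LTO1, on the other strand of 10.4% of the exon bases of CCND1, had means of 37.4 CPM in control and 33.9 CPM in KO libraries. CCND2 had 1 count in control replicate 1, 3 in KO replicate 3 and none elsewhere, so no level above the floor of 3 counts was seen. CCNE1 (ENSG00000105173.9, chromosome 19, 30302898 to 30315219, plus strand), which activates CDK2 at the G1/S boundary, had levels of 45.0, 44.9 and 47.8 CPM in control and 31.6, 35.3 and 31.8 CPM in KO libraries, and fell by 0.48 on the log2 scale (log2 fold change -0.48, SE 0.080, adjusted p 3.15e-05). CCNE2 had 28.9, 31.5 and 29.0 CPM in the control libraries and 22.5, 24.9 and 25.2 CPM in the KO libraries (log2 fold change -0.30, SE 0.085, adjusted p 0.00851). The KO values of both E-type cyclins lay below all control values, and CCNE1 was called in all 6 fits that left out 1 library. Of the 4397 exon bases of CCNE2 1629 overlap INTS8 on the other strand. INTS8 had means of 87.7 CPM in control and 84.2 CPM in KO libraries, above CCNE2. Since the strand setting of the counting was not stated, CCNE2 is uncertain.

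Of the kinases that these cyclins activate, CDK4 fell while CDK6 and CDK2 were not called. CDK4 (ENSG00000135446.12, chromosome 12, 58141510 to 58149796, minus strand) had 319, 280.3 and 286 CPM in the control libraries and 211, 227 and 203 CPM in the KO libraries. All KO values lay below all control values (log2 fold change -0.46, SE 0.072, adjusted p 9.76e-06), and CDK4 was called in all 6 fits that left out 1 library. TSPAN31 overlaps 44.2% of its exon bases on the other strand. At 30.7 CPM in control and 28.8 in KO libraries TSPAN31 stood far below CDK4. Since the strand setting of the counting was not stated, the level of CDK4 is also uncertain, though INTS8 stood above CCNE2 and TSPAN31 below CDK4. CDK6, the other partner of D-type cyclins, had levels of 53.3, 64.3 and 60.7 CPM in control and 71.3, 68.5 and 70.4 CPM in KO libraries (log2 fold change 0.24, SE 0.078, adjusted p 0.0216), and its KO values were above its control values. CDK2 overlapped between groups (log2 fold change -0.024, SE 0.071, adjusted p 0.836, 95% interval -0.17 to 0.12). CDC25A, the phosphatase that activates CDK2, had a log2 fold change of 0.22 (95% interval 0.042 to 0.40, adjusted p 0.0557).

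Of 6 CDK inhibitors CDKN1C rose and the others were not called. CDKN1C (ENSG00000129757.8, chromosome 11, 2904443 to 2907005, minus strand), which encodes p57 and is imprinted in normal tissue, rose from a low level. Its values were 3.97, 2.70 and 3.46 CPM in the control libraries and 5.65, 5.99 and 5.57 CPM in the KO libraries, from 66 to 151 counts per library, without overlap (log2 fold change 0.77, SE 0.14, adjusted p 0.000147), and it was called in all 6 fits that left out 1 library. CDKN1B, which encodes p27, had the opposite sign, with 77.9, 76.4 and 86.4 CPM in the control libraries and 69.0, 51.4 and 66.3 CPM in the KO libraries (log2 fold change -0.37, SE 0.089, adjusted p 0.00194). The KO values lay below the control values but KO replicate 2 was well under the other KO libraries, and CDKN1B was just short of 1.3-fold, passing it in 4 of the 6 fits that left out 1 library, while its log2 fold change was -0.25 without KO replicate 2. CDKN2A, which encodes p16 and p14ARF, had levels of 442, 397 and 387 CPM in control and 279.8, 396 and 346 CPM in KO libraries (log2 fold change -0.26, SE 0.088, adjusted p 0.0239). Its groups overlapped, with KO replicate 2 at the level of the controls, and its adjusted p was 0.217 without KO replicate 1 (log2 fold change -0.14), 0.236 without control replicate 1 and 0.0572 without KO replicate 3. Without KO replicate 2 it was called (-0.38). Counts per gene do not separate p16 from p14ARF, and CDKN2B-AS1, with a mean of 2.80 CPM in control and 3.93 CPM in KO libraries, overlaps 15.3% of its exon bases on the other strand. CDKN2B (0.055), CDKN2C (-0.12) and CDKN2D (0.22) had adjusted p of 0.635, 0.210 and 0.173. The level of CDKN2A per length in control libraries depended on the length taken, at 418 CPM per kb of the canonical transcript (978 bases) and 105 CPM per kb of all annotated exon bases (3885 bases). TPX2, CCNB1 and PCNA had 189 to 193 CPM per kb of the canonical transcript and 161 to 184 CPM per kb of all exon bases, so that CDKN2A lay above them by the first length and below them by the second.

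No pocket protein or E2F factor was called. RB1, the retinoblastoma protein gene, had 101, 109 and 104 CPM in the control libraries and 103, 98.4 and 112 CPM in the KO libraries. Its groups overlapped, with a log2 fold change of -0.0021 and a 95% interval of -0.15 to 0.15. RBL1 (0.083) and RBL2 (-0.12) had intervals of -0.078 to 0.24 and -0.27 to 0.027. For the pocket proteins 0 of 3 had an unadjusted p under 0.05 in edgeR and 0 an adjusted p under 0.05 in DESeq2. E2F1 (-0.13, interval -0.29 to 0.023), an activator, E2F3 (0.10, -0.049 to 0.25), likewise an activator, and E2F4 (-0.10, -0.26 to 0.053), the main partner of RBL1 and RBL2, also overlapped between groups. The atypical repressors E2F7 and E2F8 were the E2F members with an unadjusted p under 0.05. E2F8, with the lowest level of the 5, had 7.93, 9.54 and 9.63 CPM in the control libraries and 8.10, 6.50 and 7.52 CPM in the KO libraries (log2 fold change -0.30, SE 0.12, adjusted p 0.0530), and KO replicate 1 lay above control replicate 1. Without control replicate 1 its log2 fold change was -0.40 with an adjusted p of 0.00857. E2F7 had a log2 fold change of -0.16 (adjusted p 0.0865), and no E2F member passed an adjusted p of 0.05 in DESeq2.

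No S phase gene was called, and all differed by less than 1.3-fold. The 6 subunits of the MCM2-7 helicase, which is loaded at origins in G1, had log2 fold changes from -0.12 (MCM7) to 0.28 (MCM5). MCM5 was the licensing gene with an adjusted p under 0.05, at 105, 88.2 and 87.3 CPM in the control libraries and 108, 123 and 110.5 CPM in the KO libraries (log2 fold change 0.28, SE 0.079, adjusted p 0.00670), and its KO values lay above its control values. Control replicate 1 was its highest control library, and its adjusted p was 0.0572 without control replicate 3 and 0.0523 without KO replicate 2. MCM3 had 170.3, 169 and 169 CPM in the control libraries and 187, 186 and 185 CPM in the KO libraries, where the spread within each group was small and the groups did not overlap, yet the difference was 0.14 (adjusted p 0.125). MCM6 (0.11) did not overlap between the groups either. MCM2 (-0.12) and MCM4 (-0.0094) overlapped. CDC6, CDT1 and GMNN, which load the helicase or restrain its loading, had -0.073, -0.031 and -0.061, and CDC45, which joins it at firing, -0.12, with intervals that together spanned -0.28 to 0.15.

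Among the genes of nucleotide supply RRM2 had the lowest log2 fold change. RRM2, the regulated small subunit of ribonucleotide reductase, had 342, 335 and 336 CPM in the control libraries and 288, 265 and 283 CPM in the KO libraries, without overlap (log2 fold change -0.28, SE 0.067, adjusted p 0.00218), a 1.21-fold difference under the threshold. RRM1, the large subunit, had levels of 332, 312 and 318 CPM in control and 296, 264 and 289.8 CPM in KO libraries (log2 fold change -0.18, SE 0.069, adjusted p 0.0520). Its KO values were also below all control values, with an adjusted p of 0.0454 in DESeq2. TK1 (-0.16) and TYMS (-0.054), enzymes of thymidine nucleotide synthesis, overlapped between groups. ENOSF1 shares 39.9% of the exon bases of TYMS on the other strand, so the level of TYMS is likewise uncertain. PCNA, the sliding clamp of DNA polymerases, had the opposite sign (0.15, interval 0.012 to 0.30, adjusted p 0.0963).

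Of the mitotic members WEE1 fell, and most others differed by under 0.1 on the log2 scale (13 of 19, or 68.4%). This share was 30.2% of all tested genes and 42.9% (24 of 56) of the other mitotic genes listed below. WEE1 (ENSG00000166483.6, chromosome 11, 9595217 to 9615004, plus strand), the kinase that holds CDK1 inactive, had 80.4, 87.7 and 90.1 CPM in the control libraries and 67.9, 60.02 and 65.8 CPM in the KO libraries, without overlap (log2 fold change -0.42, SE 0.076, adjusted p 9.67e-05). WEE1 was called in 5 of the 6 fits that left out 1 library and had a log2 fold change of -0.36, under the threshold, without KO replicate 2. CCNB2 had 99.0, 104 and 98.7 CPM in the control libraries and 81.8, 79.2 and 83.7 CPM in the KO libraries (log2 fold change -0.30, SE 0.071, adjusted p 0.00147), and every KO value was below every control value. CCNB1, with which CDK1 enters mitosis, had levels of 396, 388 and 389 CPM in control and 407, 403 and 405 CPM in KO libraries. Its groups did not overlap, and its difference was 0.050 with a 95% interval of -0.085 to 0.19. CDK1 itself had 96.5, 104 and 103 CPM in the control libraries and 93.6, 99.4 and 110.0 CPM in the KO libraries (interval -0.15 to 0.15), and CCNA2 a log2 fold change of -0.12.

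Of the kinases and checkpoint genes, CDC20, the activator of the anaphase-promoting complex, had an adjusted p under 0.05. It had 237, 202 and 195 CPM in the control libraries and 248, 248 and 233 CPM in the KO libraries (log2 fold change 0.20, SE 0.074, adjusted p 0.0395), and control replicate 1 lay inside the KO range. Leaving out 1 library gave adjusted p from 0.00114 (without control replicate 1) to 0.250 (without control replicate 3). PLK1 (0.050), AURKA (0.057), AURKB (0.039), BUB1 (-0.095), BUB1B (0.092) and BIRC5 (-0.018) had intervals within a 1.3-fold change. MKI67, the Ki-67 gene used as a proliferation marker, had levels of 321, 313 and 273 CPM in control and 330.0, 328 and 297 CPM in KO libraries (log2 fold change 0.074, SE 0.073, adjusted p 0.486). TOP2A, which untangles sister chromatids, had 509.7, 519 and 477 CPM in the control libraries and 460.3, 429 and 485 CPM in the KO libraries (log2 fold change -0.13, SE 0.070, adjusted p 0.164), and both markers overlapped between the groups. TPX2, a spindle assembly factor with the highest CPM of all members in control libraries, had -0.092 (interval -0.23 to 0.051), KIF11, the spindle motor Eg5, 0.039 and MYBL2 -0.013. CDC25B had -0.093 and CDC25C 0.17. WEE1 apart, none of these was called. The summed level of the 19 mitotic members was 3704, 3528 and 3418 CPM in control replicates 1 to 3 and 3516, 3457 and 3493 CPM in KO replicates 1 to 3, so that all KO sums lay between the lowest and the highest control sum.

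Within gene families, the balance of paralogues was compared as the share of counts per kilobase of the canonical transcript in each library, in 11 families with 35 shares. In 15 shares the groups did not overlap (exact permutation p 0.1 two-sided, the smallest that 3 libraries against 3 allow, and at least 0.233 after adjustment over 35 shares). This count holds mirror images, since in a pair such as CDK4 and CDK6 each share fixes the other. Levels did not overlap for 41.3% of all tested genes, and shares of other gene families were not computed. CDK4 made up 97.4, 96.5 and 96.7% in control libraries and 94.9, 95.4 and 94.8% in KO libraries of CDK4 and CDK6. The difference was -1.85 points (KO minus control), or -7.88 points over raw counts, and CDK4 supplied most of the pair's transcripts in both groups. CDKN1C made up 6.48, 4.59 and 5.16% in control libraries and 10.0, 13.7 and 10.2% in KO libraries of the CIP/KIP members CDKN1B and CDKN1C, a difference of 5.91 points, and with all annotated exon bases as the length CDKN1B differed by -12.3 points in place of -5.91. CDKN1A, also a CIP/KIP gene, is not a member and was left out of this total. It had 21.2 CPM per kb in control and 21.5 CPM per kb in KO libraries, so shares of the whole family would be smaller. CCNB1 made up 74.6, 73.2 and 74.3% in control libraries and 78.5, 78.9 and 78.0% in KO libraries of the B-type cyclins. CCNE1 made up 68.0, 66.1 and 69.3% in control libraries and 65.8, 66.0 and 63.3% in KO libraries of the E-type cyclins, a difference of -2.77 points. Among the MCM subunits, which assemble in equal number, MCM7 made up 38.2, 36.5 and 37.2% in control libraries and 34.0, 35.4 and 33.7% in KO libraries, MCM5 7.49, 6.98 and 6.86% in control libraries and 8.31, 9.11 and 8.69% in KO libraries and MCM3 13.7, 15.1 and 15.0% in control libraries and 16.2, 15.6 and 16.4% in KO libraries. CCND1 had a share of 74.9, 75.8 and 76.6% in control libraries and 76.8, 74.6 and 77.9% in KO libraries among D-type cyclins, with overlap between the groups (exact permutation p 0.6, two-sided).

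**Figure D3:**
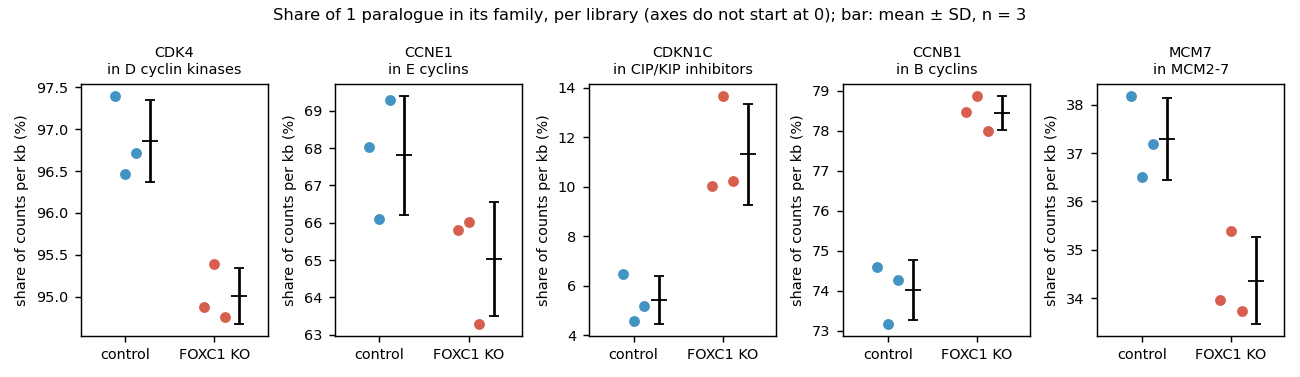
Share (%, y axes not starting at 0) of CDK4, CCNE1, CDKN1C, CCNB1 and MCM7 in the summed counts per kilobase of their family, per library, with mean ± SD (n = 3) for control and FOXC1 KO. The panels are all from the 15 of 35 shares without overlap (exact permutation p 0.1, 0.233 after adjustment). The difference of means (KO minus control) is -1.85 points for CDK4 and 5.91 points for CDKN1C. The CIP/KIP total holds CDKN1B and CDKN1C without CDKN1A.

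How far control replicate 1 lay from the other controls went with the base composition of the members, a comparison chosen after the values were seen. Its deviation from the mean of control replicates 2 and 3 ran from -0.27 (E2F8) to 0.36 (CDKN1C) on the log2 scale. It was the highest control library for 29 of 58 members, against 40.7% of all tested genes. Members with GC-rich transcripts, such as TK1 (60.3% GC, deviation 0.31) and PLK1 (57.1%, 0.30), were high in this library. CDK6 (39.7%, -0.23) and CDK1 (35.4%, -0.098) were low. Across the 58 tested members Spearman's rho of deviation and GC content was 0.78, and it was 0.64 across the 13241 tested genes that averaged 1 CPM or more. These are descriptions across genes that share their libraries. The log2 fold change between the groups followed GC content less, with a rho of 0.13 across the members and -0.034 across those genes. Without control replicate 1, 4 members were called higher and 5 lower. All 6 called members were also called in this fit, with CCND3 (0.39) added among the higher and CDKN1B (-0.40) and E2F8 (-0.40) among the lower.

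**Figure D4:**
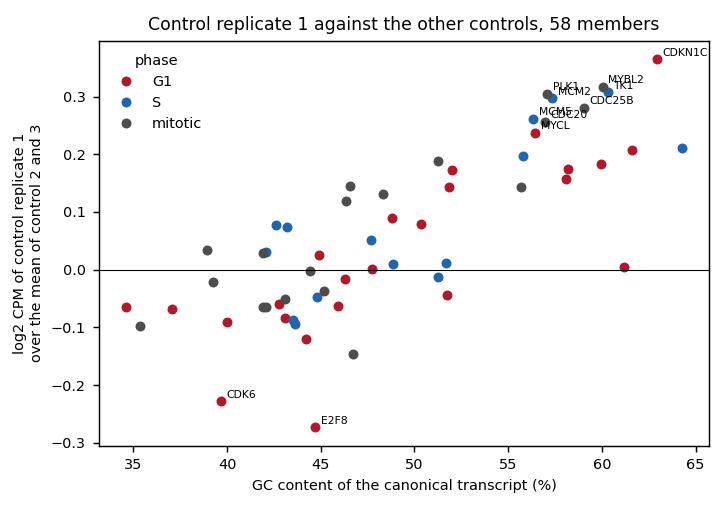
Log2 ratio of control replicate 1 to the mean of control replicates 2 and 3 (y axis) against the GC content of the canonical transcript (%, x axis) for the 58 tested members, coloured by phase. The ratio is higher for GC-rich members, with CDKN1C at the top right and E2F8 and CDK6 lowest.

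Other genes of the cycle, 114 that were matched of 115 listed, included 6 called genes. Of 114 tested, 4 were lower and 2 higher, 5.26% against 16.0% of all tested genes, with a median log2 fold change of -0.014. By phase, 9.09% of the G1, 8.33% of the S phase and 1.79% of the mitotic list were called. The median absolute log2 fold change was 0.19, 0.099 and 0.15 in these lists, so the mitotic list lay above the S phase list, unlike among the members. Without the fold change threshold 41 of them (36.0%) had an adjusted p under 0.05, 20 lower and 21 higher, against 29.4% of all tested genes. In G1, MNT (-0.53), a repressor that competes with MYC for MAX, and CKS1B (-0.51), a CDK subunit needed to degrade p27, fell. MNT had 40.6, 37.8 and 38.4 CPM in the control libraries and 26.2, 28.1 and 26.8 CPM in the KO libraries, and CKS1B had levels of 135, 136 and 133 CPM in control and 81.3, 100.1 and 102 CPM in KO libraries, both without overlap, and both were called in all 6 fits that left out 1 library. In S phase, ORC6 (-0.42), of the origin recognition complex, and RPA3 (-0.40), the smallest subunit of the single-strand binding protein, fell and RFC1 (0.41), a clamp loader subunit, rose. Among 56 mitotic genes 1 was called, ANAPC4 (0.40), which rose. Without the fold change threshold 20 of the mitotic list (35.7%) had an adjusted p under 0.05, 11 lower and 9 higher. RFC1 and ANAPC4 were called in 4 and 3 of the 6 fits. Without control replicate 1 or KO replicate 3 neither was called, while without control replicate 2 a total of 6 of these genes were called higher.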

How the data were processed

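RNA-seq of 6 J82 libraries was analysed from a table of raw counts per gene that the authors had deposited. Per the labels and the methods, the authors had aligned paired reads of 75 bases to hg19 with STAR and counted them on GENCODE 19 genes with featureCounts. Tool versions and the settings for strand and multiply mapped reads were not given in the sources used here, so counts of overlapping genes are uncertain. Groups came from the sample labels, and 0 columns belonged to other samples. Genes passing filterByExpr (15647 of 57820) were tested in R 4.3.3 with edgeR 4.0.16 (TMM scaling, robust quasi-likelihood F test), with group as the only term. A call required a Benjamini-Hochberg adjusted p under 0.05 over all tested genes and a fold change over 1.3. Standard errors were derived from the F statistic, 95% intervals from the t distribution, and CPM from the deposited counts. Lengths, GC content and coordinates came from GENCODE 44 lifted to GRCh37, the assembly of hg19, in which 55538 identifiers matched. Promoter sequences came from RefSeq. Exact permutation tests were two-sided.

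The members and lists were chosen with earlier results of these data known. All members could be named, with each called member given per library, and at most 5 called genes a direction from each list of other cell cycle genes (chosen by p), FOXC1, and cell type markers. Overlapping genes were named after their values were seen. Alternatives were DESeq2 1.42.0, scaling by RLE or by library size alone, filters at 0 or at a mean of 50 counts, other thresholds, each library left out in turn, a term for the replicate number, and other lengths for paralogue shares. The procedure was tested on simulated counts.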

Additional observations from a re-analysis of the deposited data

How the results depend on the processing

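All alternatives listed were run, with the thresholds of DESeq2 without a fold change, of a 2-fold change and the exon length added after the data were seen. Of the results for single members 658 had the same direction and call as reported, 9 gained a call, 5 lost one and 23 had the opposite sign, which in each case was of a member that was not called. Without a fold change threshold 8 members were lower and 7 higher with edgeR, and 9 lower and 7 higher with DESeq2. Against a 1.3-fold change itself 0 members were lower, and past a 2-fold change 0 were lower and 0 higher. These thresholds differ by construction. Leaving out 1 library gave 3 to 5 members lower and 2 to 4 higher, and 4 to 7 other cell cycle genes lower and 0 to 6 higher. The median log2 fold change of all members was -0.037 with a mean of at least 50 counts and ran from -0.055 to -0.0098 with 1 library left out. That of G1 was 0.030 with DESeq2, and that of the mitotic members ran from -0.022 to 0.039 with 1 library left out. RB1 had 0.0021 with DESeq2. CDK1 had -0.0086 with library size alone, -0.013 with a mean of at least 50 counts and -0.0018 without a filter. With 1 library left out the log2 fold change ran from -0.083 to 0.0073 for CDK2, from -0.064 to 0.041 for RB1, from -0.13 to 0.034 for CDT1, from -0.046 to 0.013 for MCM4, from -0.072 to 0.047 for CDK1, from -0.0095 to 0.15 for PLK1, from -0.022 to 0.086 for AURKB, from -0.053 to 0.039 for BIRC5, from -0.013 to 0.089 for KIF11 and from -0.076 to 0.091 for MYBL2. The share of CDK4 differed by -7.88 points over raw counts and -2.79 points over all exon bases, that of CDKN1B by -12.3 points over all exon bases, and that of CCNB1 by 3.71 and 3.43 points. The cause of these differences was not tested beyond what each setting changes. With the replicate number as a block 3 members were lower and 3 higher, 4 other genes were lower and 2 higher, and CDK1 had -0.0024. Same-numbered libraries correlated in their deviations at -0.040, -0.13 and 0.073, and no library correlated best with its own number, so the numbers were not taken to pair the samples. Depth limited MYCN, CCND2 and MYCL, with at most 36 counts in any library.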
